A study of Mus musculus with 24 samples.

Results

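Skin irradiated with protons at 2 dose rates was compared gene by gene. The libraries were chosen by label: 4 skin libraries labelled F-PRT and 4 skin libraries labelled S-PRT, 8 of the 24 libraries of the series, with 4 untreated skin libraries used to set the spread and as a background. F-PRT is read here as FLASH proton radiotherapy, in which the dose is given at an ultra-high rate, and S-PRT as standard proton radiotherapy at the conventional rate. All 3 groups came from skin of female mice aged 10 weeks. The series is titled for a mouse sarcoma model, and the question it names is which expression changes differ between the beams. Strain, genotype, body site, radiation dose, time between irradiation and sampling, and whether an animal carried a tumour are not stated by any label. Replicates within a group carry the word biological in the labels. PolyA-selected RNA was sequenced as read pairs of 150 bases, and the expected count per gene was analysed.

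Ionizing radiation breaks DNA, and p53, a transcription factor stabilized by such breaks, turns on genes that halt the cell cycle, repair DNA or kill the cell. Skin is layered: epidermal keratinocytes divide in the basal layer and differentiate upwards, hair follicles carry sebaceous glands that secrete lipid, and below them lie collagen-rich dermis, vessels and a fat layer. In many mouse body sites a thin sheet of skeletal muscle lies under the fat, and hair follicles pass through growth and rest phases, so that small differences in what a piece of skin holds show up in its RNA.

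The libraries held 16.42 to 21.61 M (mega, SI prefix) expected counts in F-PRT skin, 18.8 to 22.09 M in S-PRT skin and 16.71 to 21.2 M in Untreated skin. Although the RNA was polyA-selected, 7SK, 7SL and rRNA-like genes took 8.98 to 10.6% of counts in F-PRT. Their share was 5.54% in S-PRT 1, 12.5% in S-PRT 4 and 12.1 to 16.1% in Untreated libraries. Without these genes edgeR called 0 in both fits, with 495 and 580 at an unadjusted p under 0.05. Keratin transcripts marked every library as skin: Krt5, a basal keratin, was deposited at 1270 to 1810 TPM in F-PRT, 1270 to 3600 TPM in S-PRT and 835 to 2440 TPM in Untreated libraries. Replicate 4 of S-PRT stood apart. Its median correlation with the other skin libraries was 0.925, against 0.9528 to 0.9745 for the rest, and 6.32% of its counts were mitochondrial, against 3.9 to 4.91% in F-PRT, 4.31 to 4.74% in S-PRT 1 to 3 and 2.44 to 6.46% in Untreated libraries. The endothelial gene Pecam1 stood at 61.4 to 72.3 CPM (counts scaled to a common library size) in F-PRT, 62.7 to 66.8 CPM in S-PRT 1 to 3 and 1.64 CPM in S-PRT 4. Averaged over each marker list on the log2 CPM scale, endothelial genes stood at 4.04 to 4.22 in F-PRT, 3.98 to 4.18 in S-PRT 1 to 3 and 0.15 in S-PRT 4. Dermal collagen and matrix genes stood at 6.60 to 6.93 in F-PRT, 6.88 to 7.03 in S-PRT 1 to 3 and 4.45 in S-PRT 4. Basal keratinocyte genes stood at 7.76 to 8.04 in F-PRT, 7.86 to 8.06 in S-PRT 1 to 3 and 9.29 in S-PRT 4. Of the defining markers, Cldn5 of endothelium, Clec9a of dendritic cells, Foxp3 of regulatory T cells and Ms4a2 of mast cells had 0 counts in that library. Its levels were thus high for basal epidermis and low for dermis, vessels and immune cells. Counts, medians and differences below are therefore given with all libraries and without S-PRT 4. Untreated 1 stood apart too, with a chi-square of gene counts per degree of freedom of 193.2 to 209.7 against the other Untreated libraries, where pairs with S-PRT 4 gave 149.2 to 203.2 and all other pairs within a group 10.74 to 97.97. It enters the comparison of the beams only through the spread, the scaling and the filter on low counts.

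**Figure D1:**
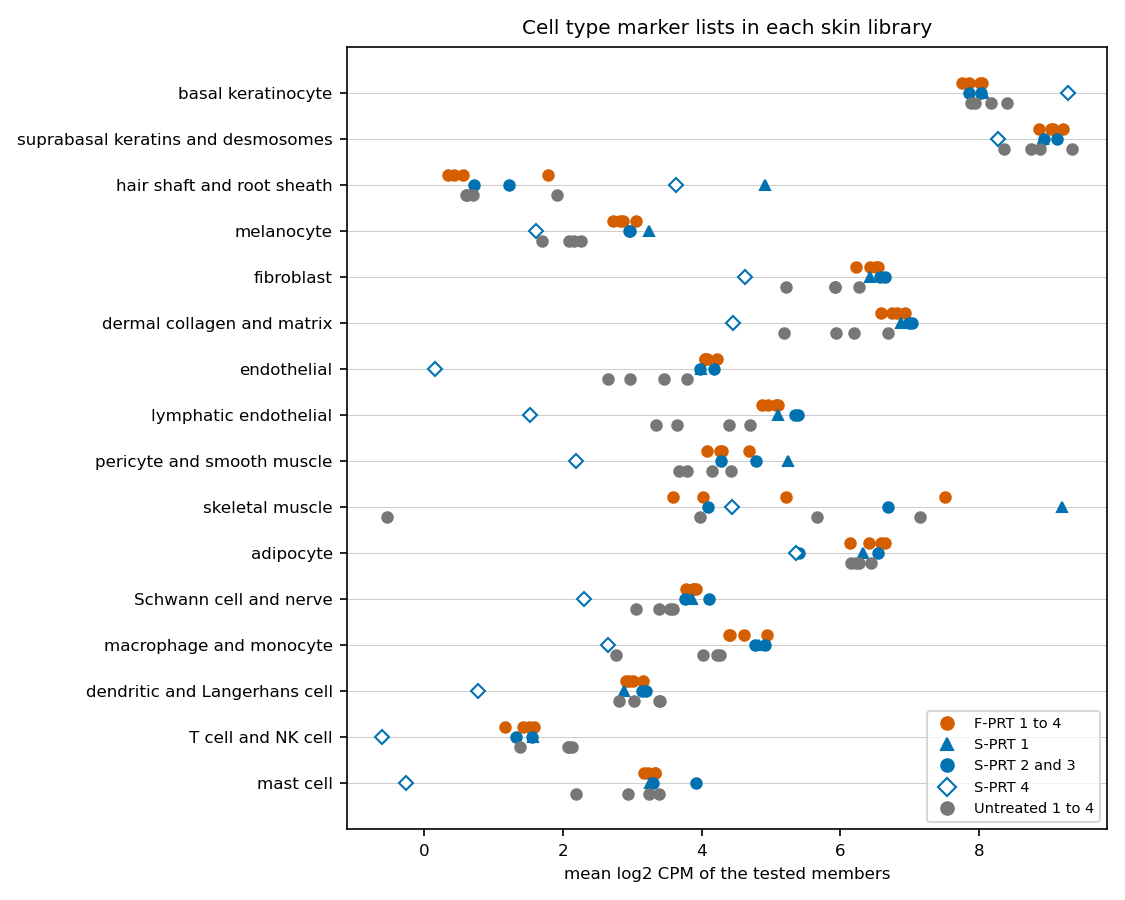
Mean log2 CPM of 16 cell type marker lists (rows) in each skin library, with F-PRT (orange) above S-PRT (blue) and Untreated (grey) in each row. S-PRT 4 (open diamond) sits below the other irradiated libraries for endothelial, fibroblast, collagen and immune lists and above them for basal keratinocytes; S-PRT 1 (triangle) is highest for hair shaft and skeletal muscle.

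No gene differed between the beams past the test. With all libraries 19038 genes were tested and 0 (0%) had a Benjamini-Hochberg adjusted p under 0.05 in edgeR's quasi-likelihood test. Without S-PRT 4 the count was again 0 (0%) of 19405. At an unadjusted p under 0.05 there were 522 genes (2.74%) with all libraries, of which 248 (1.3%) were higher and 274 (1.44%) lower in F-PRT skin. Without S-PRT 4 there were 581 (2.99%), 248 (1.28%) higher and 333 (1.72%) lower. If no gene differed and the p values were exact, a share of about 0.05 would lie under 0.05. Both shares were below that, so the test was strict here. DESeq2 called 2 genes with all libraries and 5 without S-PRT 4, with 555 and 624 at an unadjusted p under 0.05. limma voom called 0 in both, with 1109 and 1374. Without Untreated 1, edgeR called 0 in both, with 866 and 1140. With irradiated libraries only, it called 0 of 18499 and 0 of 18873, with 567 and 1273. The lowest edgeR adjusted p values there were 0.966 and 0.18. The count of genes at an unadjusted p under 0.05 thus depended on which libraries set the spread.

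For most genes the data bounded the difference only to within 1 log2 unit, which is wider than the median absolute difference. The 95% interval of the log2 difference, F-PRT minus S-PRT, lay within 1 log2 unit of 0 for 13428 genes (70.5%) with all libraries and 14261 (73.5%) without S-PRT 4. The median difference over all genes was -0.02 and -0.01, the median absolute difference 0.15 and 0.13, and 46.6% and 48.8% of genes lay above 0. The 2 groups did not overlap for 511 genes (2.68%) with all libraries, 261 (1.37%) with F-PRT higher and 250 (1.31%) with F-PRT lower. With 3 S-PRT libraries the count was 1329 (6.85%), 701 (3.61%) higher and 628 (3.24%) lower. These shares are the background for the gene groups that follow, in which 0 members passed edgeR's adjusted test in either fit.

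The gene nearest to the threshold was Nnat (neuronatin), an imprinted gene that encodes a small membrane protein of the endoplasmic reticulum, known from neurons and adipocytes. Nnat (ENSMUSG00000067786) lies on chromosome 2, 157560078 to 157562522, plus strand of GRCm38. It stood at 52.4, 45.2, 35.7 and 63 CPM in F-PRT skin, against 25.4, 22.9, 22.7 and 25.4 CPM in S-PRT skin; Untreated skin held 55.6, 58.5, 56.2 and 52.9 CPM. Every F-PRT library lay above every S-PRT library, and the F-PRT range overlapped the Untreated range. The mean was 49.1 ± 11.5 CPM in F-PRT and 24.1 ± 1.53 CPM in S-PRT (SD, n = 4 each), a log2 difference of 1.03 (SE 0.15, 95% interval 0.71 to 1.35). In edgeR its unadjusted p was 1.25e-05 and its adjusted p = 0.237. Without S-PRT 4 the log2 difference was 1.04 (0.70 to 1.39) with an edgeR adjusted p = 0.537. DESeq2 called it in both (adjusted p = 4.5e-06 and 2.8e-05), and edgeR called it when F-PRT 3, the lowest F-PRT library for this gene, was left out (adjusted p = 0.0201, and 0.0297 without S-PRT 4 as well). Nnat lies within the span of Blcap, a gene on the other strand, and the strand of counting is not stated; Blcap itself differed by 0.10 on the log2 scale (95% interval -0.11 to 0.31), and by 0.13 without S-PRT 4.

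Second by p was Hcar1 (ENSMUSG00000049241, chromosome 5, 123876736 to 123880020, minus strand), which encodes the lactate receptor of adipocytes, a brake on fat breakdown. It stood at 12.9, 8.4, 11 and 8.55 CPM in F-PRT skin, against 3.66, 5.74, 4.19 and 4.57 CPM in S-PRT skin, with Untreated skin between them at 5.9 to 7.24 CPM. All F-PRT libraries were above all S-PRT libraries. The log2 difference was 1.17 (0.75 to 1.59; edgeR adjusted p = 0.498) with all libraries and 1.17 (0.71 to 1.62; edgeR adjusted p = 0.999) without S-PRT 4. DESeq2 called it at adjusted p = 0.000117 and 0.00107.

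The promoters of these 2 genes are shown because they led the comparison; both are RefSeq sequences on GRCm38.p6, from 250 bases before to 50 bases after the start, 5′ to 3′ on the gene's own strand. That of Nnat is chr2:157559828-157560127 (plus strand) and that of Hcar1 chr5:123879954-123880253 (minus strand). Neither window holds the nuclear receptor half-site AGGTCA or the TATA box TATAAA on either strand.
Nnat: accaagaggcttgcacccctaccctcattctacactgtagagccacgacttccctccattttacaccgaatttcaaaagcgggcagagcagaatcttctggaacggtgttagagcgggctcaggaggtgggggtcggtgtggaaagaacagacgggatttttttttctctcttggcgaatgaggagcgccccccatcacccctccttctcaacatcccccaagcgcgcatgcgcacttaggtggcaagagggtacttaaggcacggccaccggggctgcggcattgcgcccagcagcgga
Hcar1: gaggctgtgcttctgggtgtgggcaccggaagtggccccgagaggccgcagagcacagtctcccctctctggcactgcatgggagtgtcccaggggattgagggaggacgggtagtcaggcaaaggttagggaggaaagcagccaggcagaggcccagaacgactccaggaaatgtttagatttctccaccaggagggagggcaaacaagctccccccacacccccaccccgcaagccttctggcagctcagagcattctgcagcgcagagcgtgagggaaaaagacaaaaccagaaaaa
The Nnat window is 57.3% G and C with 17 CpG dinucleotides, and the Hcar1 window 59.7% with 8, where the medians of 32851 mouse promoter windows were 52.7% and 7. The half-site occurs in 16.3% of those windows and the TATA box in 13.6%, and a window without these letters says nothing of the factors.

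Further genes with higher F-PRT means, among them the transporter genes Slc5a3 and Slc1a3, were picked for lack of overlap and small p. Their lack of overlap is thus no finding about them, and 261 genes (1.37%) separated this way with all libraries. Slc5a3, the sodium-coupled myo-inositol transporter of osmotic balance, stood at 123, 83.1, 97.8 and 113 CPM in F-PRT skin, against 64.5, 72.3, 57.1 and 73.3 CPM in S-PRT skin and 80.8 to 111 CPM in Untreated skin. Slc1a3, a glutamate and aspartate transporter, stood at 30.2 to 36.4 CPM in F-PRT, against 22.1 to 27.2 CPM in S-PRT, beside 35.6 to 49.1 CPM in Untreated skin. For both genes the S-PRT libraries were the low group and F-PRT overlapped Untreated. Their log2 differences were 0.64 (0.33 to 0.96) and 0.49 (0.23 to 0.75) with all libraries, and 0.68 and 0.55 without S-PRT 4, each at an edgeR adjusted p = 0.999. Slc5a3 shares 159 exonic bases (1.46% of its own) with Mrps6, so reads there cannot be assigned to 1 gene with certainty. Also in that set were Nrg4, an ErbB ligand released by fat, Chrdl1, a secreted antagonist of bone morphogenetic proteins, and Aadacl3, a hydrolase-like gene. Their log2 differences were 0.77, 0.71 and 0.97 with all libraries and 0.62, 0.56 and 0.80 without S-PRT 4, with no overlap in either.

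**Figure D2:**
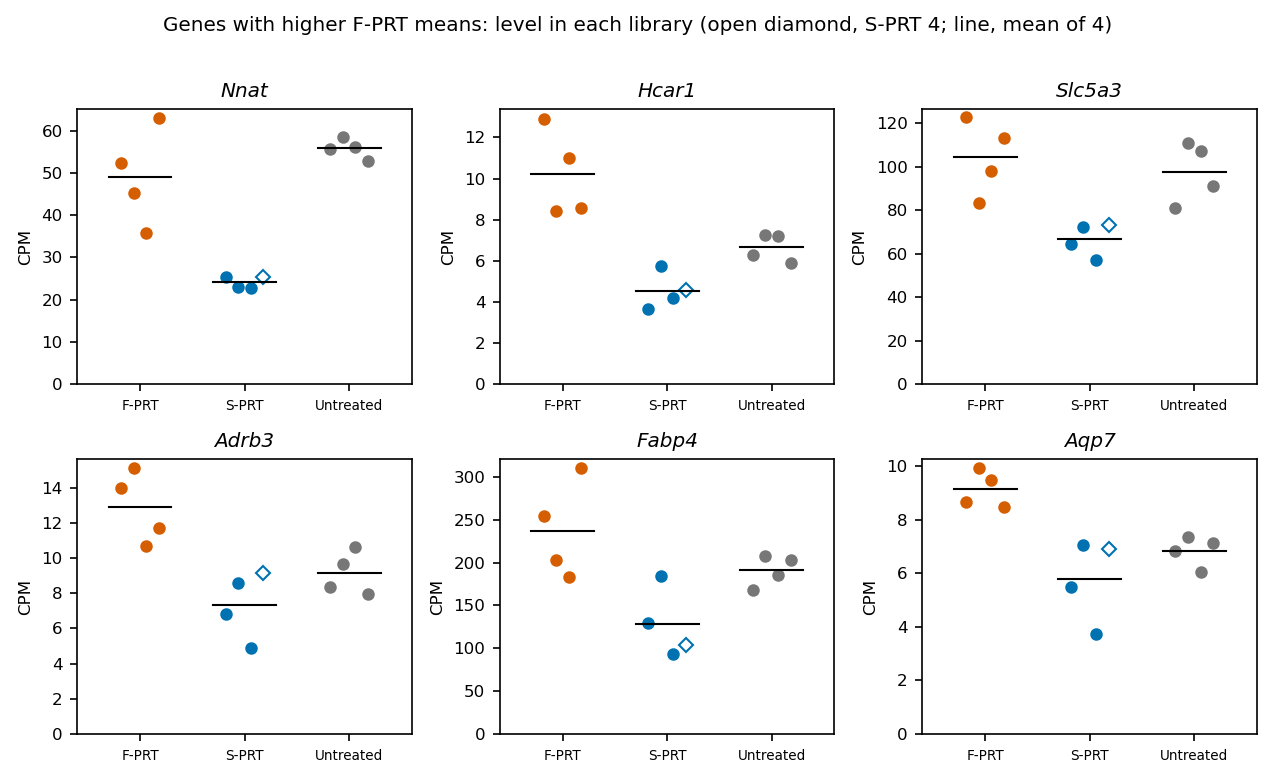
Level (CPM, linear axis from 0) of 6 genes with higher F-PRT means in each F-PRT, S-PRT and Untreated library; the line is the mean of 4 and the open diamond S-PRT 4. Nnat, Hcar1, Slc5a3, Adrb3 and Aqp7 show no overlap between F-PRT and S-PRT, whereas for Fabp4 the S-PRT library at 185 CPM exceeds the F-PRT library at 183 CPM.

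Adipocyte genes had higher F-PRT than S-PRT means in 16 of 18 tested, with a median log2 difference of 0.47 with all libraries and 0.27 without S-PRT 4, where the median over all genes was -0.02 and -0.01. None passed edgeR's adjusted test, and DESeq2 called Adrb3 without S-PRT 4 (adjusted p = 0.0491). Of the 18, 6 with all libraries and 3 without S-PRT 4 had an unadjusted edgeR p under 0.05, all with F-PRT higher. In each fit 2 showed no overlap. Over all genes, the shares with F-PRT higher were 1.3% and 1.28% by that p, and 1.37% and 3.61% for no overlap. Adrb3, the beta-3 adrenergic receptor that starts fat breakdown, stood at 14, 15.1, 10.7 and 11.7 CPM in F-PRT skin, against 6.79, 8.56, 4.9 and 9.14 CPM in S-PRT skin. Cd36, a fatty acid transporter, stood at 204, 176, 194 and 207 CPM in F-PRT, against 144, 160, 95.2 and 64.1 CPM in S-PRT. In both genes the groups did not overlap. The log2 difference of Cd36 was 0.75, or 0.54 without S-PRT 4, and the log2 difference of Adrb3 was 0.81 (0.37 to 1.25) with all libraries and 0.92 (0.48 to 1.36) without S-PRT 4. Adrb3 shares 24.9% of its exonic bases with an antisense gene, Gm45470, whose own log2 difference was 0.10, or 0.20 without S-PRT 4.

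Fabp4, the fatty acid binding protein of adipocytes, stood at 254, 203, 183 and 310 CPM in F-PRT skin, against 130, 185, 92.9 and 104 CPM in S-PRT skin (log2 0.89, 0.42 to 1.36, and 0.79 without S-PRT 4), and the groups overlapped at 183 and 185 CPM. Adipoq, the hormone adiponectin, stood at 114, 132, 87 and 121 CPM in F-PRT, against 71.3, 118, 50.8 and 47 CPM in S-PRT (log2 0.66, and 0.49 without S-PRT 4). Outside the list, Aqp7, the glycerol channel of fat cells, ranged from 8.5 to 9.96 CPM in F-PRT, against 3.73 to 7.08 CPM in S-PRT (log2 0.66, and 0.74 without S-PRT 4).

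The list's levels varied within S-PRT. Its mean log2 CPM was 6.59, 6.42, 6.14 and 6.65 in F-PRT, against 6.33, 6.54, 5.41 and 5.37 in S-PRT, and 6.15 to 6.45 in Untreated skin. S-PRT 1 and 2 lay within the F-PRT range, and S-PRT 3 and 4 below it. Leaving out S-PRT 3 as well as S-PRT 4 brought the list's median to 0.01, and leaving out S-PRT 2 as well as S-PRT 4 to 0.62. The 2 members below 0 were Gpd1 and Slc2a4, which skeletal muscle also uses. Both were highest in S-PRT 1, at 138 and 51.8 CPM, the library with the highest muscle marker level. Whether muscle content bears on the direction of these genes was not tested. In bulk RNA, fewer cells of a type and less RNA per cell cannot be told apart.

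Steroid, retinoid and barrier enzymes included differences above 1 log2 unit, and those named here other than Aldh1a3 were lower in both irradiated groups than in Untreated skin. Of 20 tested, 14 had higher F-PRT means with all libraries and 16 without S-PRT 4, with medians of 0.30 and 0.15. The second median was 0.07 when S-PRT 1 was left out too, and 0.28 when S-PRT 2 was. An unadjusted edgeR p under 0.05 was found for 4 and 5 with F-PRT higher, and for 1 in each fit with F-PRT lower. No overlap was found for 3 and 4 with F-PRT higher, and for 0 and 1 with F-PRT lower. The shares over all genes with F-PRT higher were 1.3% and 1.28% by that p, and 1.37% and 3.61% for no overlap. With F-PRT lower they were 1.44% and 1.72%, and 1.31% and 3.24%. Cyp2g1, a cytochrome P450, stood at 25.3, 13.9, 44.2 and 22.9 CPM in F-PRT skin, against 12.5, 13.9, 9.39 and 2.4 CPM in S-PRT skin and 126 to 374 CPM in Untreated skin. Its log2 difference was 1.47 (0.41 to 2.54), or 1.15 (0.28 to 2.01) without S-PRT 4. The groups did not overlap, although F-PRT 2 and S-PRT 2 both round to 13.9 CPM. Hsd3b6, a steroid dehydrogenase, stood at 17.8, 18.8, 12.5 and 18.7 CPM in F-PRT, against 7.63, 11.2, 9.24 and 2.05 CPM in S-PRT, beside 45.7 to 72.6 CPM in Untreated skin. The groups did not overlap, and the log2 difference was 1.17 (0.37 to 1.97), or 0.85 (0.40 to 1.30) without S-PRT 4.

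Serpina3b, a serine protease inhibitor, overlapped between the beams, at 95.8 to 193 CPM in F-PRT against 15.5 to 126 CPM in S-PRT, beside 633 to 726 CPM in Untreated skin (log2 1.25, 0.19 to 2.32, and 0.92 without S-PRT 4). Among the 6 members below 0 with all libraries and 4 without S-PRT 4 was Aldh1a3, which makes retinoic acid. It stood at 3.25, 5.47, 3.97 and 3.77 CPM in F-PRT skin, against 13.4, 7.49, 15 and 3.87 CPM in S-PRT skin. Only S-PRT 4 lay within the F-PRT range, and the log2 difference was -1.27 (-2.28 to -0.27), or -1.55 (-2.43 to -0.67) without it. None of these reached an edgeR adjusted p below 0.999.

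Sebaceous and cholesterol genes also had medians above 0. Of 32 sebaceous gland and skin lipid genes 26 had higher F-PRT means in both fits (medians 0.38 and 0.19), and of 25 cholesterol synthesis and uptake genes 21 and 20 did (medians 0.25 and 0.14). Without S-PRT 4, the sebaceous median was 0.12 when S-PRT 1 was left out too, and the cholesterol median 0.09 when S-PRT 2 was. Unadjusted edgeR p values under 0.05 with F-PRT higher were found for 2 and 3 sebaceous genes and 4 and 2 cholesterol genes. With F-PRT lower there were 0 and 1 sebaceous genes, and 0 cholesterol genes in each fit. The shares over all genes were 1.3% and 1.28% higher, and 1.44% and 1.72% lower. No overlap with F-PRT higher was found for 1 sebaceous and 2 cholesterol genes in each fit (shares over all genes 1.37% and 3.61%). With F-PRT lower it was found for 1 sebaceous gene without S-PRT 4 (share 3.24%). Mgst1, a microsomal glutathione transferase abundant in sebaceous cells, stood at 209, 227, 182 and 179 CPM in F-PRT skin, against 116, 166, 144 and 58.9 CPM in S-PRT skin and 320 to 448 CPM in Untreated skin (log2 0.72, and 0.48 without S-PRT 4). Its groups did not overlap. Far2, which makes the fatty alcohols of wax esters, did overlap, at 192 to 273 CPM in F-PRT against 21 to 226 CPM in S-PRT (log2 0.92, and 0.56 without S-PRT 4). So did Idi1 of the isoprenoid pathway, at 121 to 145 CPM in F-PRT against 68.6 to 129 CPM in S-PRT (0.43, and 0.27).

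Lipid synthesis was not uniform. Fasn, the fatty acid synthase, had log2 differences of -0.20 and -0.35, Acaca, which feeds it malonyl-CoA, -0.25 in both fits, and the desaturases Fads1 and Fads2 -0.11 and -0.41 with all libraries and -0.38 and -0.61 without S-PRT 4. The sebaceous list had a mean log2 CPM of 6.36 to 6.72 in F-PRT, 6.24 to 6.64 in S-PRT 1 to 3 and 4.95 in S-PRT 4. Beyond leaving that library out, the share of its make-up in these differences was not tested.

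**Figure D3:**
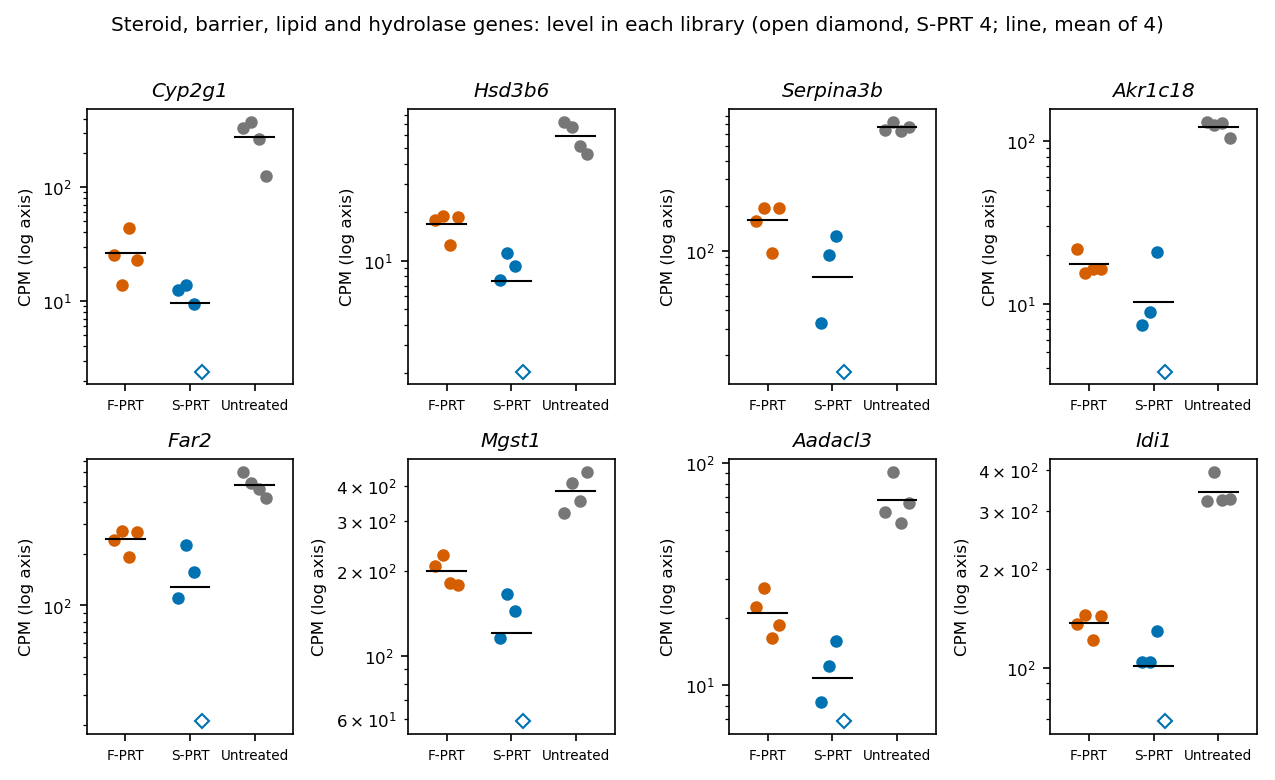
Level (CPM, log axis) of 8 steroid, barrier, lipid and hydrolase genes in each F-PRT, S-PRT and Untreated library, with the mean of 4 as a line and S-PRT 4 as an open diamond. All 8 are highest in Untreated skin, F-PRT means lie above S-PRT means, and S-PRT 4 is the lowest S-PRT library in each panel.

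Among genes lower in F-PRT skin in both fits with no overlap were a zinc finger gene, a homeobox gene and cell adhesion and receptor genes. They were picked for lack of overlap and small p with all libraries, so neither is a finding about them. With all libraries 250 genes (1.31%) separated in this direction. Zfp568, a KRAB zinc finger repressor, stood at 8.47, 7.25, 8.34 and 7.86 CPM in F-PRT skin, against 14.2, 11.5, 8.78 and 12.2 CPM in S-PRT skin and 8.72 to 9.43 CPM in Untreated skin (log2 -0.55, -0.88 to -0.22, and -0.54 without S-PRT 4). Cux1, a homeobox factor, was tight in F-PRT at 82.3 to 85.8 CPM, and wide in S-PRT at 154, 102, 93.7 and 176 CPM, with S-PRT 1 and 4 highest (log2 -0.64, and -0.48 without S-PRT 4). Acvr1, a receptor for bone morphogenetic proteins, stood at 28.6 to 33.1 CPM in F-PRT, against 35.3 to 46.6 CPM in S-PRT, beside 25.1 to 29.9 CPM in Untreated skin. Here the S-PRT libraries were the high group (log2 -0.37, -0.61 to -0.13, and -0.29, -0.50 to -0.08, without S-PRT 4). Pxn, the focal adhesion adaptor paxillin, Npnt, the matrix ligand nephronectin, Otud7b, a deubiquitinase, Abcb9, a lysosomal peptide transporter, and Col8a1, a collagen chain of vessel walls and basement membranes, differed by -0.32, -0.48, -0.37, -0.65 and -0.70, and without S-PRT 4 by -0.28, -0.46, -0.33, -0.52 and -0.71.

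For further genes with lower F-PRT means the groups did not overlap once S-PRT 4, which lay below the F-PRT range, was left out. Lack of overlap and small p in that fit were a rule for naming genes, and 628 genes (3.24%) separated in this direction. Samd4, an RNA-binding translational repressor, stood at 28.5, 29.1, 32.8 and 27.1 CPM in F-PRT, against 52.3, 40.5, 37.5 and 13.9 CPM in S-PRT, beside 16.8 to 21.4 CPM in Untreated skin. The log2 difference was -0.30 (-0.91 to 0.32) with all libraries and -0.57 (-0.87 to -0.28) without S-PRT 4. Map1b, a microtubule-associated protein, had -0.13 and -0.41, Samhd1, a nucleotide hydrolase that limits viral replication, -0.17 and -0.41, Spsb1, a ubiquitin ligase adaptor, -0.33 and -0.58, Adamtsl4, a protein of elastic microfibrils, -0.18 and -0.41, and Zeb1, a transcription factor of mesenchymal cells, -0.11 and -0.45. All had an edgeR adjusted p = 0.999 in both fits.

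Genes driven by p53 did not pass the test between the beams, and most of their 95% intervals lay within 1 log2 unit of 0. They were not all narrower than usual. The SE of Cdkn1a was 0.20 with all libraries and 0.22 without S-PRT 4, where the median over all genes was 0.23 and 0.21. Cdkn1a, an inhibitor of cyclin-dependent kinases under p53 control, stood at 305, 331, 331 and 338 CPM in F-PRT skin, against 330, 319, 335 and 313 CPM in S-PRT skin. The ranges overlapped, with a log2 difference of 0.01 and a 95% interval of -0.43 to 0.45, or -0.02 (-0.50 to 0.47) without S-PRT 4. Untreated skin held 280, 149, 137 and 135 CPM, with Untreated 1 highest. The SD was 14.6 CPM in F-PRT, 10.1 CPM in S-PRT and 70.2 CPM in Untreated skin. All 3 groups enter the spread behind this SE and interval. Mdm2, the ligase that restrains p53, stood at 105, 101, 119 and 97.1 CPM in F-PRT, against 104, 101, 97.2 and 105 CPM in S-PRT (0.06, -0.16 to 0.27, and 0.06, -0.16 to 0.29, without S-PRT 4). Zmat3, an RNA-binding p53 target, differed by -0.13 (-0.37 to 0.11) and Trp53inp1, a p53-induced regulator of cell death, by -0.23 (-0.55 to 0.10), where S-PRT 4 held 440 CPM and the other S-PRT libraries 296 to 329 CPM. Without S-PRT 4 these 2 stood at -0.06 (-0.29 to 0.16) and -0.10 (-0.39 to 0.18).

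Of the p53 lists, 7 of 22 arrest and feedback genes lay above 0 with all libraries, 4 of 15 cell death genes and 5 of 20 metabolism and repair genes, with medians of -0.06, -0.07 and -0.11. Without S-PRT 4 the counts were 6, 5 and 7 and the medians -0.06, -0.03 and -0.04. The 95% interval lay within 1 log2 unit of 0 for 21, 14 and 19 of these genes with all libraries and for 20, 15 and 19 without S-PRT 4, against 70.5% and 73.5% of all genes. Ccng1, which encodes cyclin G1, stood at 370, 274, 344 and 278 CPM in F-PRT and 565, 320, 312 and 305 CPM in S-PRT, where S-PRT 1 stood alone (log2 -0.25, and -0.34 without S-PRT 4). Fdxr, a mitochondrial ferredoxin reductase and p53 target, showed no overlap, at 3.42 to 4.42 CPM in F-PRT and 4.78 to 6.38 CPM in S-PRT (log2 -0.48, -0.88 to -0.08, and -0.40 without S-PRT 4).

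A list of 10 genes far higher in irradiated than in Untreated skin, picked from these libraries in an earlier reading, was also set between the beams. All 10 had lower F-PRT means in both fits, with medians of -0.26 and -0.12, and the 95% interval lay within 1 log2 unit of 0 for 9 and 10 of them. Gria3, a glutamate receptor subunit, stood at 47.2, 49.6, 55.8 and 49.3 CPM in F-PRT skin, against 41, 55, 57.6 and 64.3 CPM in S-PRT skin and 2.6 to 3.23 CPM in Untreated skin. Mcam, an adhesion molecule, stood at 131, 110, 116 and 130 CPM in F-PRT, against 145, 138, 130 and 242 CPM in S-PRT. Gria3 overlapped between the beams, while Mcam overlapped at 130 and 131 CPM only. S-PRT 4 was highest of the 8 libraries in both. Their log2 differences were -0.11 and -0.43, or -0.03 and -0.19 without S-PRT 4.

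**Figure D4:**
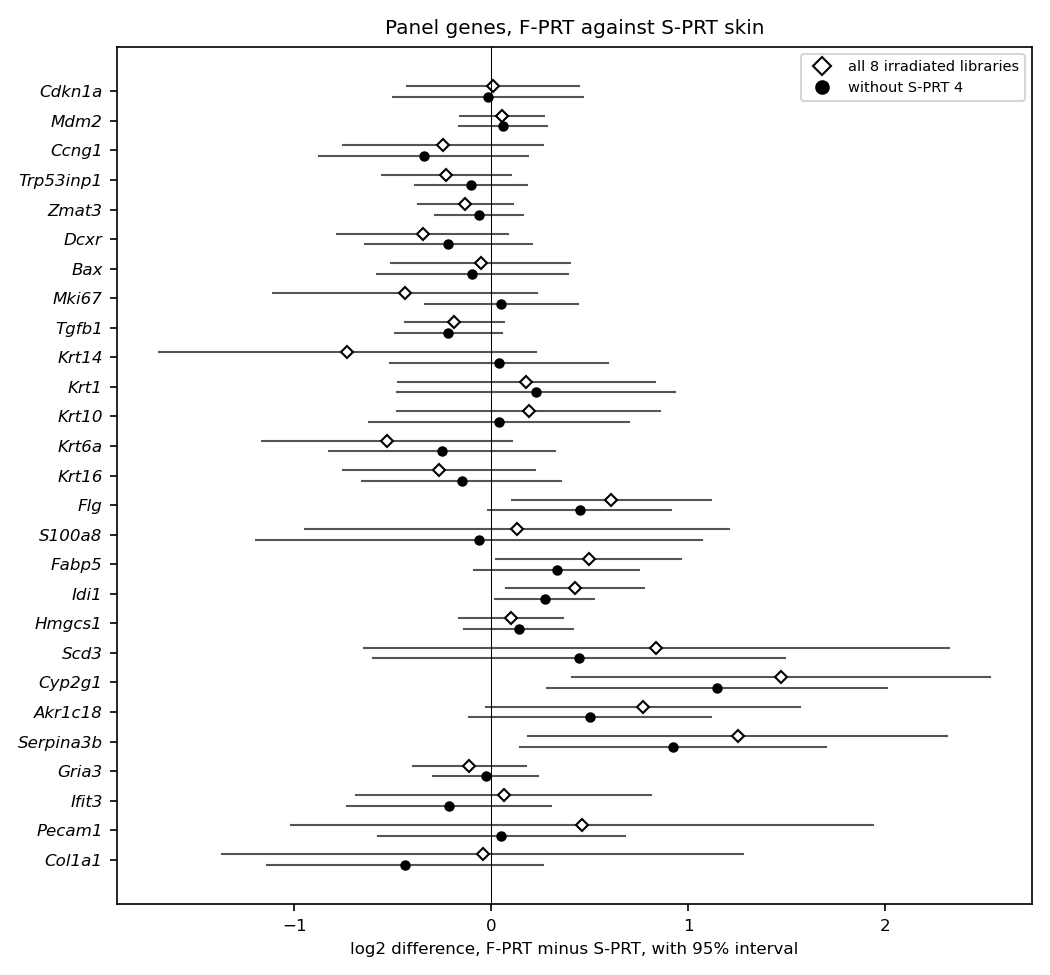
Log2 difference, F-PRT minus S-PRT, with its 95% interval for 27 panel genes, with all libraries (open diamond) and without S-PRT 4 (filled circle). The p53 targets at the top sit near 0 with intervals within 1 log2 unit of 0, whereas intervals for Krt14, Pecam1 and Col1a1 narrow when S-PRT 4 is left out.

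Cell cycle and repair genes depended on S-PRT 4 for their direction. With all libraries 4 of 30 mitosis genes, 11 of 33 DNA replication genes and 14 of 36 DNA repair genes had higher F-PRT means (medians -0.14, -0.10 and -0.08). Without S-PRT 4 the counts were 28, 32 and 28 (medians 0.24, 0.18 and 0.12), beside 48.8% of all genes. Leaving out S-PRT 2 as well as S-PRT 4 gave medians of 0.08 for mitosis and 0.08 for DNA repair, and F-PRT 3 as well as S-PRT 4 gave 0.10 for mitosis. With only S-PRT 4 left out, 2 mitosis, 2 replication and 4 repair genes had an unadjusted edgeR p under 0.05, all with F-PRT higher. In that fit 1, 8 and 7 showed no overlap with F-PRT higher. The shares over all genes were 1.28% and 3.61%. Mki67, the proliferation marker, stood at 85.3, 92, 97 and 66 CPM in F-PRT skin, against 103, 67.7, 74.2 and 217 CPM in S-PRT skin. S-PRT 4 held more than any other irradiated library, and the log2 difference was -0.44 (-1.11 to 0.23), or 0.05 (-0.34 to 0.44) without it.

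Fancd2, a core gene of DNA crosslink repair, stood at 4.63, 5.99, 5.78 and 4.86 CPM in F-PRT, against 3.66, 3.33, 2.83 and 6.32 CPM in S-PRT, beside 4.55 to 7.98 CPM in Untreated skin. F-PRT lay above S-PRT 1 to 3 and below S-PRT 4, and the log2 difference was 0.40 (-0.17 to 0.97), or 0.69 (0.22 to 1.16) without S-PRT 4. Cdk1, the mitotic kinase, stood at 12, 12, 12.9 and 8.23 CPM in F-PRT, against 8.53, 8.26, 7.22 and 17.6 CPM in S-PRT (0.12, and 0.48 without S-PRT 4). Rrm2 and Prim1, of nucleotide supply and replication priming, had log2 differences of 0.41 and 0.43 without S-PRT 4, with no overlap, and 0.24 and 0.25 with it. Levels of the basal keratinocyte list, the epidermal compartment that divides, stood at 7.76 to 8.04 in F-PRT and 7.86 to 8.06 in S-PRT 1 to 3 on the log2 CPM scale. Whether cell content bears on the cell cycle and repair differences was not tested.

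Interferon response genes had lower F-PRT means once S-PRT 4 was left out. With all libraries 21 of 42 lay above 0 (median -0.01) and 0 had an unadjusted edgeR p under 0.05. Without S-PRT 4 only 4 lay above 0 (median -0.21). In that fit 9 had an unadjusted edgeR p under 0.05 with F-PRT lower, and 3 showed no overlap with F-PRT lower. Over all genes these shares were 1.72% and 3.24%. Zbp1, a sensor of Z-form nucleic acid, stood at 9.37, 9.44, 11.7 and 8.32 CPM in F-PRT skin, against 13.8, 10.7, 20.9 and 3.51 CPM in S-PRT skin and 4.6 to 5.9 CPM in Untreated skin (log2 -0.33, and -0.64 without S-PRT 4). Irgm1, an interferon-induced GTPase, stood at 14.3, 17, 15.7 and 11.9 CPM in F-PRT, against 21.4, 16.6, 20.6 and 9.72 CPM in S-PRT (-0.22, and -0.42). In these 2 genes S-PRT 1 and 3 were high, S-PRT 2 lay within the F-PRT range and S-PRT 4 below it.

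The list mean stood at 3.11, 3.11, 3.37 and 2.96 in F-PRT and 3.42, 3.02, 3.65 and 1.94 in S-PRT on the log2 CPM scale. Without S-PRT 4, the median came to -0.04 when S-PRT 3 was left out too and to -0.42 when S-PRT 2 was. Ifit3, an antiviral protein, differed by 0.06 (-0.69 to 0.81) and -0.21 (-0.73 to 0.30). Macrophage and monocyte genes followed, with 16 of 25 above 0 with all libraries and 2 without S-PRT 4 (medians 0.05 and -0.27, the second -0.17 when F-PRT 1 was left out too). Antigen presentation genes of MHC class I and II had 8 of 18 and 1 of 18 above 0 (medians -0.01 and -0.17).

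Stromal and vessel genes had medians at or below 0 once S-PRT 4 was set aside. All 25 endothelial genes lay above 0 with all libraries (median 0.39), and 12 did without S-PRT 4 (median -0.0036). Pecam1 differed by 0.46 (-1.01 to 1.94) and 0.05 (-0.57 to 0.68). Dermal collagen and matrix genes had 24 of 34 above 0 with all libraries (median 0.10) and 3 without S-PRT 4 (median -0.21, or -0.14 when F-PRT 1 was left out too). Without S-PRT 4, 6 showed no overlap with F-PRT lower, where the share over all genes was 3.24%. Col1a1, the main chain of type I collagen, stood at 803, 816, 872 and 966 CPM in F-PRT skin, against 1150, 1370, 972 and 72.6 CPM in S-PRT skin. F-PRT lay below S-PRT 1 to 3 and far above S-PRT 4, and the log2 difference was -0.04 (-1.36 to 1.28), or -0.44 (-1.14 to 0.26) without S-PRT 4.

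Pericyte and smooth muscle genes had 3 of 14 and 1 of 14 above 0 (medians -0.19 and -0.48). Leaving out S-PRT 1 gave 0.14 with S-PRT 4 kept and -0.22 without it. Mylk, the myosin kinase of smooth muscle, stood at 42.9 to 48.4 CPM in F-PRT, against 67.3, 66.5, 51.1 and 9.08 CPM in S-PRT (log2 -0.09, and -0.45 without S-PRT 4). Fibroblast genes had 16 of 20 above 0 with all libraries and 4 without S-PRT 4 (medians 0.14 and -0.12, the second -0.07 when F-PRT 1 was left out too). TGF-beta ligands and response genes, which drive matrix deposition, had 11 and 5 of 28 above 0 (medians -0.11 and -0.16, or -0.04 and -0.10 without S-PRT 1). Tgfb1 itself stood at 42.1, 39.6, 43.6 and 39 CPM in F-PRT, against 48, 48.9, 45.4 and 44.6 CPM in S-PRT, beside 41 to 57.8 CPM in Untreated skin. The 2 irradiated groups did not overlap, and the log2 difference was -0.19 (-0.44 to 0.06), or -0.22 (-0.49 to 0.05) without S-PRT 4.

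Epidermal genes gave a mixed account. Basal keratinocyte genes had 0 of 20 above 0 with all libraries (median -0.53) and 7 without S-PRT 4 (median -0.03). Krt14, a basal keratin, stood at 2630, 1960, 2350 and 2560 CPM in F-PRT skin, against 2290, 1990, 2630 and 8850 CPM in S-PRT skin (log2 -0.73, -1.69 to 0.23, and 0.04, -0.51 to 0.59). S-PRT 4 alone set the first value. The epidermal differentiation complex, a gene cluster for the cornified envelope, had 26 of 30 and 22 of 30 above 0 (medians 0.39 and 0.10, or 0.62 and 0.22 without S-PRT 3). Flg (filaggrin), which bundles keratin in the granular layer, stood at 1030, 998, 1180 and 1090 CPM in F-PRT, against 833, 639, 872 and 464 CPM in S-PRT, beside 254 to 543 CPM in Untreated skin. The groups did not overlap, with a log2 difference of 0.61 (0.10 to 1.12), or 0.45 (-0.01 to 0.91) without S-PRT 4. Loricrin (Lor) differed by 0.38 and -0.02, and stood at 805 to 1210 CPM in F-PRT, 934 to 1200 CPM in S-PRT 1 to 3 and 43.1 CPM in S-PRT 4. The wound keratins Krt6a and Krt16 overlapped between the beams, at -0.53 (-1.16 to 0.11) and -0.26 (-0.75 to 0.22), or -0.25 (-0.83 to 0.33) and -0.15 (-0.65 to 0.36) without S-PRT 4.

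Hair shaft and skeletal muscle lists had the largest median differences of the 43 lists, and both depended on S-PRT 1, the first on S-PRT 4 as well. All 19 hair shaft and root sheath genes were below 0 in both fits (medians -2.18 and -2.40), 15 and 14 with an unadjusted edgeR p under 0.05 and 1 with no overlap. Shares over all genes with F-PRT lower were 1.44% and 1.72% by that p, and 1.31% and 3.24% for no overlap. Tchh (trichohyalin), of the inner root sheath, stood at 5.86, 6.16, 6.73 and 18.5 CPM in F-PRT skin, against 359, 8.1, 8.63 and 53.2 CPM in S-PRT skin. Krt71, a root sheath keratin, stood at 0.213, 0.345, 0.703 and 9.73 CPM in F-PRT, against 341, 0.462, 3.99 and 55.5 CPM in S-PRT. Both genes were high in S-PRT 1 and S-PRT 4, and S-PRT 2 and 3 lay below F-PRT 4. Leaving out S-PRT 1 moved the list's median to -1.30, and leaving out S-PRT 4 as well moved it to 0.06.

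All 28 skeletal muscle genes with all libraries and 29 without S-PRT 4 were below 0 too (medians -1.48 and -1.86), with 0 at an unadjusted edgeR p under 0.05. Acta1, the actin of skeletal muscle, stood at 1040, 141, 216 and 82.2 CPM in F-PRT, against 4000, 615, 98.8 and 104 CPM in S-PRT, beside 1.52 to 852 CPM in Untreated skin. S-PRT 1 and F-PRT 1 were the highest of the 8 irradiated libraries. The log2 difference of Acta1 was -1.70, or -2.09 without S-PRT 4. Leaving out S-PRT 1 moved the list's median to 0.42, and to 0.05 when S-PRT 4 was left out too. A covariate for muscle or for hair shaft level left 0 genes past the edgeR test in both fits. The hair shaft covariate lowered the count at an unadjusted p under 0.05 to 141 genes with all libraries and 322 without S-PRT 4.

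Of energy genes, 11 of 37 oxidative phosphorylation genes encoded in the nucleus lay above 0 with all libraries and 8 without S-PRT 4 (medians -0.07 and -0.12, or 0.04 and 0.05 without S-PRT 1), and every one had a 95% interval within 1 log2 unit of 0. Of 13 mitochondrially encoded genes 1 and 4 lay above 0 (medians -0.24 and -0.04). mt-Co3, a cytochrome c oxidase subunit, showed no overlap, at 754, 621, 883 and 711 CPM in F-PRT, against 944, 1220, 1130 and 1480 CPM in S-PRT, beside 793 to 1620 CPM in Untreated skin. Its log2 difference was -0.69 (-1.18 to -0.19), or -0.57 (-1.05 to -0.09) without S-PRT 4, while mt-Nd4l, a complex I subunit, differed by -0.08 and 0.14.

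Circadian clock genes, hypoxia and glycolysis genes, apoptosis machinery and the redox genes of NRF2 had medians between -0.16 and -0.03 in both fits. Heat shock and unfolded protein genes had medians of 0.01 and 0.07. Over all 43 lists, leaving out 1 library turned the sign of the median for 24 lists with all libraries and for 16 without S-PRT 4.

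**Figure D5:**
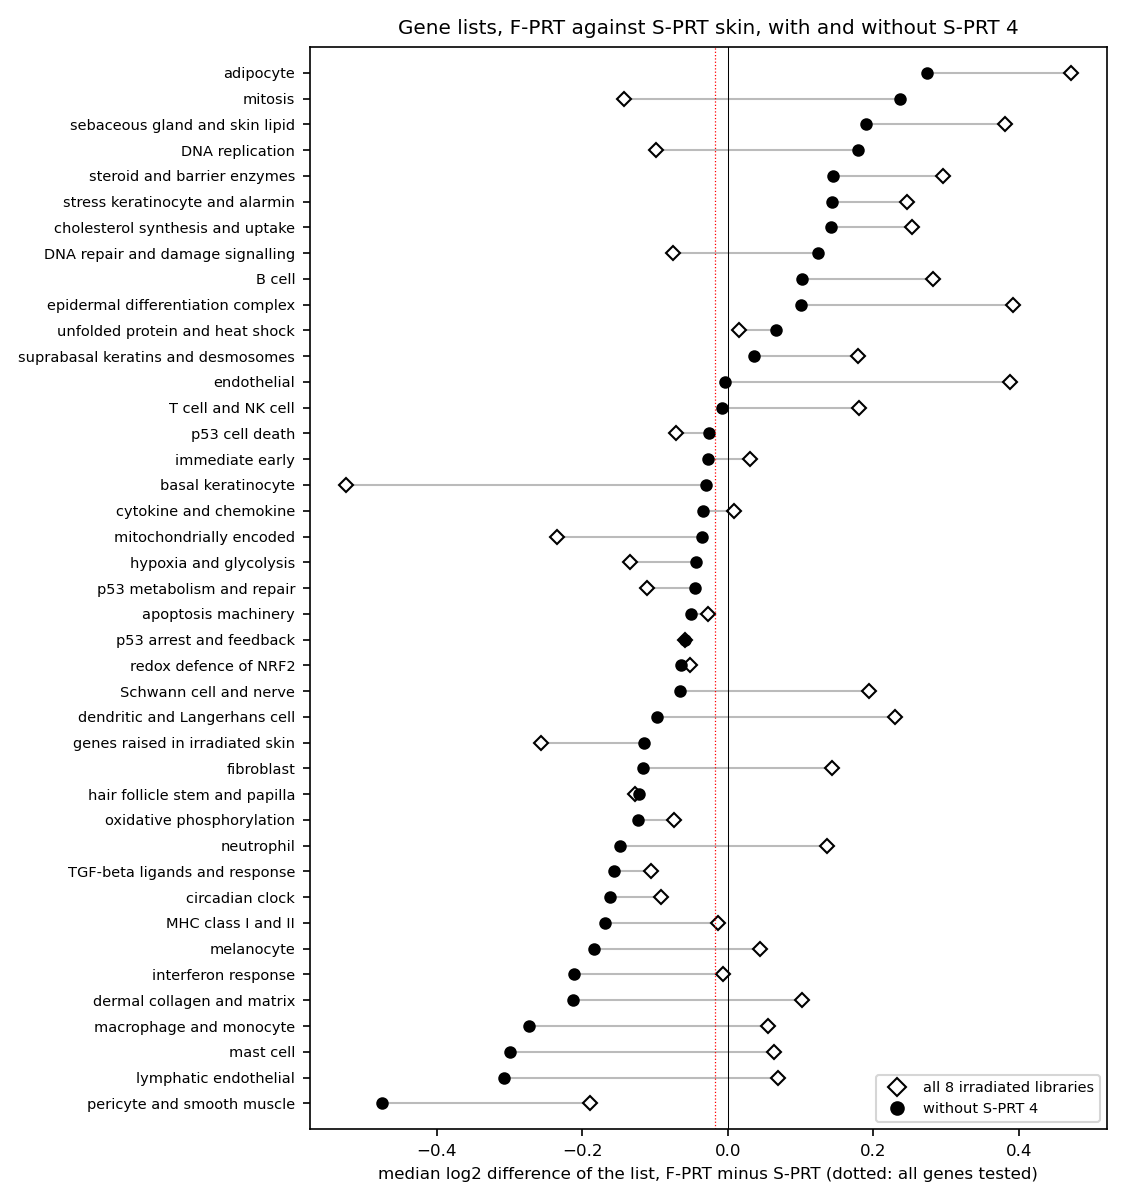
Median log2 difference, F-PRT minus S-PRT, of 41 gene lists with all 8 irradiated libraries (open diamond) and without S-PRT 4 (filled circle); the dotted line is the median of all genes, and the hair shaft and skeletal muscle lists lie off this scale. The mitosis, DNA replication and DNA repair lists cross 0 to the right when S-PRT 4 is left out, and the collagen, macrophage and lymphatic lists cross 0 to the left.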

How the data were processed

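Polyadenylated RNA from 12 skin libraries was used, 4 each of F-PRT, S-PRT and Untreated; bone libraries were not analysed here. Per the submitters' processing notes, the tools included RSEM, STAR, cutadapt and FastQC on GRCm38. Their versions, the strand setting and the annotation release: not given in the sources used here. Per the file headers, the deposited tables list 55471 identifiers with RSEM expected counts, TPM and FPKM. The expected counts the authors deposited were rounded to whole numbers and tested; deposited TPM values served the marker check, and FPKM were not used. Single keratin, Lce and Sprr genes are uncertain, because RSEM splits reads that several close copies share.

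The test was that of edgeR 4.0.16 (R 4.3.3; quasi-likelihood F test, TMM scaling, filterByExpr), once on all 12 skin libraries and once on 11 without S-PRT 4, for F-PRT minus S-PRT, at a Benjamini-Hochberg adjusted p of 0.05. Intervals of 95% come from the same fit, and p values measure the spread between libraries. CPM levels use TMM-scaled library sizes of the 12-library fit, and log2 CPM a prior count of 2. GENCODE M21 gave names and positions for 99.57% of identifiers. DESeq2 1.42.0, limma 3.58.1 voom, other scaling and filters, covariates and leaving out libraries were tried as alternatives, and the workflow was tested on simulated data. Replicate pairs differed by more than counting error.

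The 43 gene lists (1017 entries, 9 with no single match by name) were written from general knowledge; the members compared and the lists were chosen with earlier results of these data known. Named genes were, in each fit and direction, the 8 of smallest p (no gene passed the test) whose groups did not overlap and whose mean reached 2 CPM, a panel of 30, and the 2 members of smallest p without S-PRT 4 of each list. Other genes in the text (among them Adipoq, Cd36, Gpd1, Slc2a4, Fasn, Acaca, Fads1, Fads2, Lor, Krt5 and Krt71) were chosen after their values were seen. Results for some genes are not reported here.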

Additional observations from a re-analysis of the deposited data

Results flagged for a closer look

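In 346 groups of 4 libraries, made of the named genes and the lists, 53 had a highest or lowest library that stood far from the other 3 (gap over range above Dixon's 95% critical value). Chance would mark about 1 group in 20 if the groups were independent and picked without regard to these values. Many genes were picked by their p or lack of overlap in these libraries, so that rate is no yardstick here. Values in brackets are the range of the other 3 libraries of the same group, and the causes were not tested.

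F-PRT 1 stood far above the other F-PRT libraries for Acta1 at 1040 CPM (others 82.2 to 216), Gapdh at 698 CPM (others 370 to 379), Pkm at 279 CPM (others 187 to 202), Tcap at 29.6 CPM (others 2.05 to 5.88) and Tpm2 at 175 CPM (others 33.9 to 47.5), of which Acta1, Tcap and Tpm2 are muscle genes. F-PRT 3 stood apart for Casp8 at 28.8 CPM (others 22.9 to 23.8), Csf3r at 4.57 CPM (others 3.45 to 3.64) and Hsd3b6 at 12.5 CPM (others 17.8 to 18.8). F-PRT 4 stood apart for Tchh at 18.5 CPM (others 5.86 to 6.73), and the mean log2 CPM of the list hair shaft and root sheath at 1.79 (others 0.3406 to 0.549).

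S-PRT 1 stood far above the other S-PRT libraries for Acta1 at 4000 CPM (others 98.8 to 615), Ccng1 at 565 CPM (others 305 to 320), Krt26 at 29.4 CPM (others 0.555 to 3.63), S100a3 at 50.2 CPM (others 1.9 to 6.15), Tcap at 139 CPM (others 3.28 to 20.8), Tchh at 359 CPM (others 8.1 to 53.2) and Tpm2 at 622 CPM (others 26.3 to 93.5). These include muscle genes (Acta1, Tcap, Tpm2) and hair genes (Krt26, S100a3, Tchh).

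S-PRT 4 gave 20 of the 53 marks as genes and 16 as lists. It was far above the other 3 for Bmp6 at 7.44 CPM (others 6.26 to 6.38), Cdk1 at 17.6 CPM (others 7.22 to 8.53), Celf5 at 11.9 CPM (others 8.71 to 8.78), Col12a1 at 147 CPM (others 83.8 to 92.2) and Dll1 at 54.9 CPM (others 19.8 to 22.1). It was also above them for Ect2 at 36.7 CPM (others 14.7 to 18.1), Krt14 at 8850 CPM (others 1990 to 2630), Mcam at 242 CPM (others 130 to 145) and Rrm2 at 29 CPM (others 18.6 to 19.6). Higher again were Tap1 at 174 CPM (others 102 to 111) and Tnfrsf10b at 41.8 CPM (others 23.4 to 24.2). It was far below them for Cdh19 at 3.16 CPM (others 6.61 to 7.13), Col14a1 at 13.3 CPM (others 86.5 to 88.8), Csf3r at 0.937 CPM (others 4.9 to 5.58), Emcn at 0.586 CPM (others 5.54 to 6.31) and Fcgr1 at 0.586 CPM (others 2.56 to 2.88). Lower too were Pecam1 at 1.64 CPM (others 62.7 to 66.8), Prox1 at 1.87 CPM (others 19.1 to 22.3), Tnfrsf1b at 4.16 CPM (others 30.8 to 34.7) and Zeb1 at 9.55 CPM (others 52.2 to 59.1). On the mean log2 CPM scale it was above the others for the lists DNA repair and damage signalling at 3.907 (others 3.179 to 3.283), basal keratinocyte at 9.293 (others 7.864 to 8.063), mitochondrially encoded at 10.95 (others 10.21 to 10.31) and p53 metabolism and repair at 5.236 (others 4.812 to 4.883). It was below the others for the lists MHC class I and II at 5.392 (others 6.249 to 6.366), T cell and NK cell at -0.6168 (others 1.318 to 1.573), cytokine and chemokine at 2.298 (others 3.504 to 3.638), dendritic and Langerhans cell at 0.7676 (others 2.877 to 3.194) and dermal collagen and matrix at 4.449 (others 6.882 to 7.032). Also below were the lists endothelial at 0.1521 (others 3.976 to 4.184), fibroblast at 4.621 (others 6.428 to 6.646), lymphatic endothelial at 1.528 (others 5.108 to 5.387), macrophage and monocyte at 2.646 (others 4.776 to 4.919) and mast cell at -0.2647 (others 3.248 to 3.916). The remaining low lists were neutrophil at 0.5821 (others 1.868 to 1.961) and stress keratinocyte and alarmin at 2.848 (others 3.442 to 3.514).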

How the results depend on the processing

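The number of genes past the test was 0 under every alternative except 2. DESeq2 called 2 genes with all libraries (Nnat and Hcar1) and 5 without S-PRT 4 (among them Nnat, Hcar1 and Adrb3 higher and Tmem28 lower, log2 -1.99). Leaving out each replicate gave 0 to 1 gene in both fits, the 1 being Nnat without F-PRT 3. Counts at an unadjusted p under 0.05 ran from 141 to 1140 with all libraries and 288 to 1374 without S-PRT 4, against 522 and 581, the lowest being the hair shaft covariate and the fit without S-PRT 1. With a replicate block the call stayed at 0 genes in both fits, with 506 and 627 genes at an unadjusted p under 0.05. The labels state no pairing of equal replicate numbers, so the numbers were not taken to pair the animals. Same-numbered F-PRT and S-PRT libraries deviated from their group means together with r = 0.372, 0.0676, 0.195 and 0.126. F-PRT 1, 3 and 4 correlated best with their own number, and F-PRT 2 with S-PRT 3. F-PRT 1 and S-PRT 1 were also the highest of their groups for the skeletal muscle list (mean log2 CPM 7.52 and 9.20). Whether pairing or tissue content lies behind these correlations was not tested. RLE scaling called 0 genes (517 and 584 at an unadjusted p under 0.05). Nnat ranged from 0.88 to 1.15 on the log2 scale over the alternatives with all libraries, and Hcar1 from 0.99 to 1.30. No called value changed sign. For named genes that were not called, 136 values with all libraries and 31 without S-PRT 4 changed sign. The other 2918 and 2755 kept their sign, whatever the size of the shift. The cause of these changes was not tested.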
